A study of Mus musculus with 18 samples.

Results

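Solute carriers are membrane proteins that move amino acids, sugars, ions, metals, vitamins, nucleotides and fatty acids across the plasma membrane and the membranes of organelles. In a fat cell they supply the amino acids for protein synthesis, the fatty acids that are stored, the citrate that leaves mitochondria for lipid synthesis, and the exchange of ADP for ATP across the inner mitochondrial membrane. The genes described here are those whose symbol in the platform annotation begins with Slc, with the glucose carriers Slc2a1 and Slc2a4 left out, and which were selected on their mean signal over 18 arrays. That mean had to exceed the highest signal, 105.6, that any of 19 probe sets against yeast and Bacillus RNA reached on an array, rounded up to a whole number and called the limit below. Of 152 such genes on the array, 87 were above the limit and 65 were not. These 87 stand among 8251 genes with 1 symbol, of which 5434 lay above the same limit. Where a gene had several probe sets, the one with the highest mean signal was used.

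RNA from 3T3-F442A adipocytes, a mouse preadipocyte line turned into fat-storing cells in culture, had been hybridised to 18 Affymetrix MG_U74Av2 arrays. There were 6 groups of 3 arrays: growth hormone (GH) for 30 min against its 30 min control, GH for 4 h against its 4 h control, and GH for 48 h against its 48 h control. Each group had 1 array in each of 3 numbered experiments. The labels used here do not give the GH dose, the medium or whether the experiments were separate cultures, and p-values therefore cover only the spread among these arrays, which may be technical. All arrays come from this 1 cell line, so the experiments are not separate animals.

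The labels of 3 arrays disagree with themselves, and groups were taken from the titles. The GH 30 min array of experiment 1 is described elsewhere in its record as GH 48 h, the GH 4 h array of experiment 3 as GH 30 min, and the 48 h control of experiment 3 as a 4 h control. On this GH 4 h array Fos, an early response gene, had a signal of 60.6, against 5408 to 7900 on the GH 30 min arrays. The GH-inducible inhibitor genes Socs2, at 1600, and Cish, at 821, were near or above those of the other GH 4 h arrays on it. These genes were picked with values of the series known, and they do not separate 4 h from 48 h. On the GH 48 h arrays Fos had 55.1 to 165, Socs2 716 to 1101 and Cish 807 to 997. The 4 h changes of the genes with the lowest p-values are given with and without the GH 4 h array of experiment 3. GH changes of single genes at 30 min and 48 h are given over all arrays, those with conflicting labels included. Without the 3 arrays, 0 carriers were called at 30 min and 0 at 48 h by limma. In these fits 0.0242% and 0.33% of all probe sets were called. Of the fat cell markers, 8 of 8 measured lay above the limit, as did 6 of 6 preadipocyte or fibroblast markers. Macrophage markers passed in 2 of 5 cases, muscle markers in 3 of 4 and endothelial markers in 0 of 4.

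The transport classes were formed by family number. The mitochondrial carriers had 17 of 20 measured genes above the limit, the amino acid and peptide carriers 17 of 32, and the metal carriers 13 of 16. The ion and bicarbonate families had 10 of 23, the nucleoside and nucleotide sugar carriers 10 of 12, the carriers of organic ions and monocarboxylates 9 of 25, the sugar families 4 of 9, the fatty acid carriers 2 of 5, and the remaining families 5 of 10. The symbols Slc9a3r1, Slc9a3r2 and Slc4a1ap begin with Slc but encode binding proteins of carriers, and Slc5a6 of a sugar family carries vitamins. Just inside the limit lay Slc25a3, the mitochondrial phosphate carrier, with a mean signal of 112, and Slc25a47 with 111. Just outside lay the lactate carrier gene Slc16a1 with 104 and Slc12a5 with 103. Of the 87 genes, 16 had at least 1 array at or below the limit. Slc25a53, a mitochondrial carrier with a mean signal of 121, passed only with its 30 min control arrays (mean 102.2 without them).

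**Figure D1:**
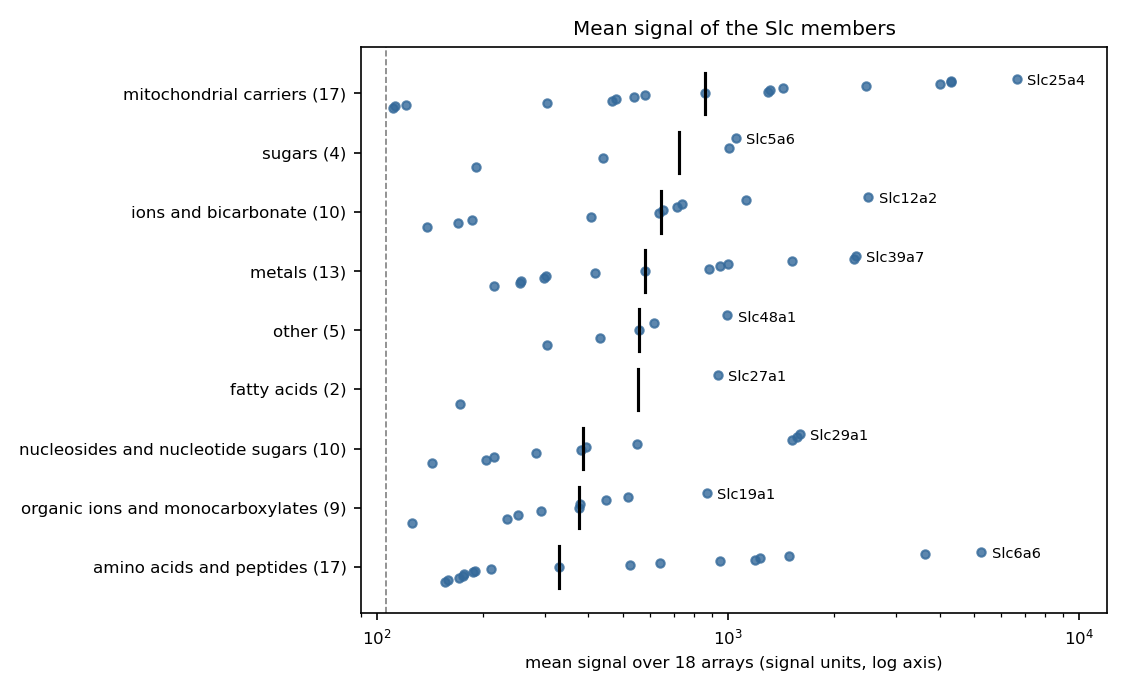
Mean signal over 18 arrays of the 87 genes, on a log axis in signal units, by transport class. Each dot is a gene, the black bar is the median of its class and the dashed line is the limit, which no dot lies below because it chose the genes; the class of mitochondrial carriers reaches 6629 signal units.

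Probe sets differ in how strongly they bind, so signals of different genes are given as a description and are not ranked as RNA amounts. Among the mitochondrial carriers, Slc25a4, which exchanges ADP for ATP, had a signal of 6629 ± 913 (SD over 18 arrays), Slc25a39, needed for glutathione import, 4316 ± 332, and the citrate carrier gene Slc25a1 4311 ± 973. Among amino acid carriers, the taurine carrier gene Slc6a6 had 5256 ± 1809.9, and Slc3a2, the heavy chain that brings several amino acid exchangers to the cell surface, 3644 ± 1014. Slc38a2, a sodium-coupled carrier of neutral amino acids, had 1494 ± 319.5. Slc12a2, which brings sodium, potassium and chloride into the cell, had 2505 ± 859, and the zinc carrier genes Slc39a7 and Slc39a1 had 2311 ± 567 and 2289 ± 557. Slc29a1, a nucleoside carrier, had 1600.0 ± 354, Slc27a1, a fatty acid carrier of fat and muscle, 936 ± 278, and the heme carrier gene Slc48a1 993 ± 160.1.

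Most carriers had signals near their controls at each time, and none of the 87 genes passed the test in any GH comparison. Changes are differences of log2(signal + 25), GH minus control, with the standard error from limma's moderated test on all 12422 probe sets, adjusted by the Benjamini-Hochberg method with a threshold of 0.05. At 30 min 0 of 87 genes were called, where 0.0403% of all probe sets were, at 4 h 0 of 87 against 0.121%, and at 48 h 0 of 87 against 0.338%. Fitting the 3 experiments as a replicate block also called 0 of 87 at each time, where the shares of all probe sets were 0.0805%, 0.362% and 1.27%. At an unadjusted p below 0.05 there were 1, 3 and 5 genes at 30 min, 4 h and 48 h without the block, and 3, 7 and 11 with it. These were 1.15%, 3.45% and 5.75% of the carriers without the block, where 2.45%, 6.86% and 6.50% of all probe sets were. With the block they were 3.45%, 8.05% and 12.6% of the carriers, where 3.61%, 10.3% and 10.3% of all probe sets were. The average of the 3 GH effects called 0 of 87, where 0.177% of all probe sets were called and 0.668% with the block. A carrier that missed the threshold is not shown to be without a change. A lower signal in an array of cell culture RNA can come from fewer cells of a kind or from less RNA per cell, which cannot be told apart.

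The median change of the 87 genes was -0.03 at 30 min, 0.02 at 4 h and 0.01 at 48 h, beside -0.03, 0.02 and 0.02 for all probe sets. Changes smaller than 0.5 on the log2 scale were seen in 84 genes at 30 min, in 75 at 4 h and in 79 at 48 h. The 87 genes include Slc25a53, Slc25a3 and Slc25a47, which passed the limit only through groups in which they are high. For these genes, the counts of this paragraph support nothing about GH. All 3 GH signals lay above all 3 control signals for 1 gene at 30 min, 11 at 4 h and 9 at 48 h, where 2.32%, 6.26% and 5.23% of all probe sets did. All 3 lay below for 4, 5 and 2 genes, where the shares of all probe sets were 4.51%, 5.13% and 4.92%.

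**Figure D2:**
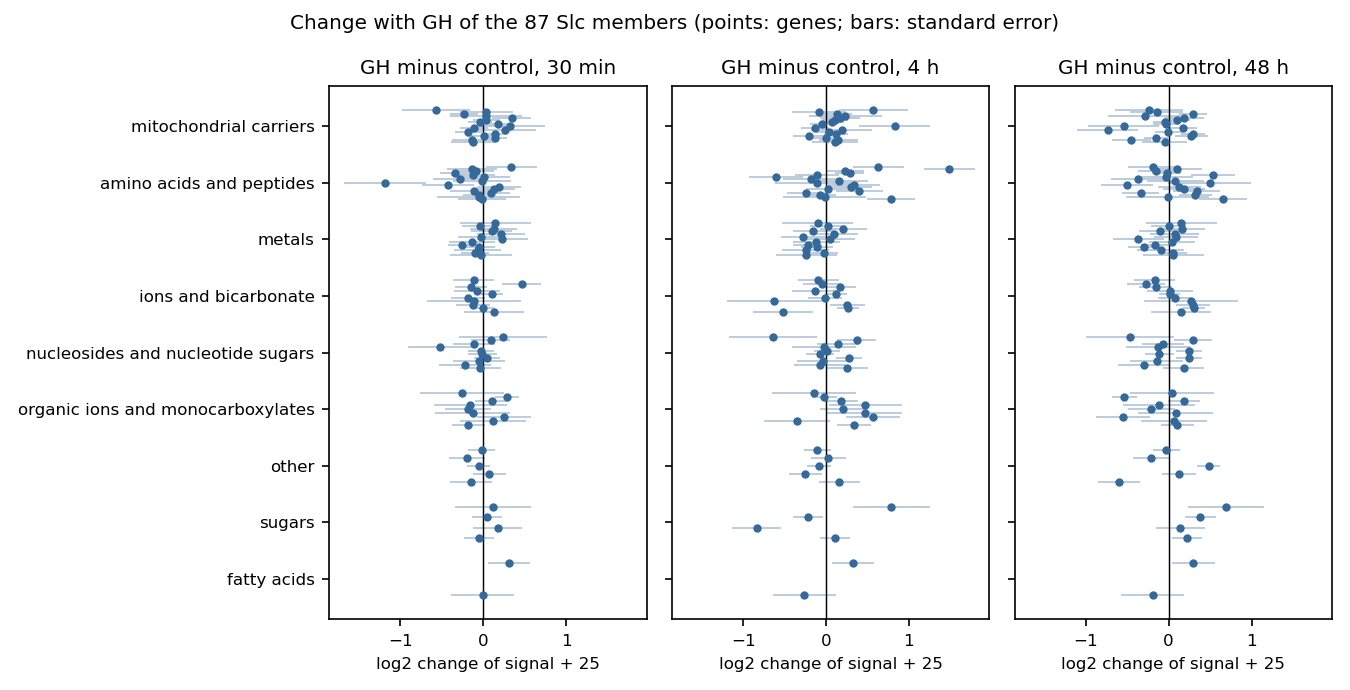
Log2 change of signal + 25, GH minus control, of the 87 genes by transport class at 30 min, 4 h and 48 h, 1 dot per gene, with its standard error from limma as a horizontal bar and the vertical line at no change. Most dots lie within 0.5 of the line, and the farthest to the right at 4 h is Slc7a5 at 1.49.

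Among the carriers of amino acids, Slc7a5 at 4 h had the largest change of all 87 genes in any of the 3 GH comparisons. Slc7a5 is the light chain of an exchanger that brings leucine and other large neutral amino acids into the cell, in a pair with Slc3a2. Its signal was 3293, 3648 and 1182 on the GH 4 h arrays of experiments 1, 2 and 3, against 920, 792 and 834 on the control 4 h arrays. All 3 GH arrays lay above all 3 controls, by far in experiments 1 and 2 and by a smaller step in experiment 3. The log2 change was 1.49 ± 0.31 with an adjusted p of 0.113 by limma, and 0.0744 with the replicate block, so it did not pass. At 30 min the signals of Slc7a5 were 641, 886 and 780 with GH and 843, 722 and 977 in controls, and at 48 h 1002, 966 and 1099 with GH and 1024, 806 and 1045 in controls. The groups overlapped at both of these times, with log2 changes of -0.14 ± 0.31 and 0.10 ± 0.31.

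The low Slc7a5 signal of experiment 3 at 4 h comes from the array whose labels conflict. Without that array the log2 change at 4 h was 2.00 ± 0.19 with an adjusted p of 0.000123 by limma, in a fit that called 0.306% of all probe sets, and 2.05 ± 0.18 with 0.000209 with the block. Without all 3 arrays with conflicting labels it was 2.00 ± 0.18, with an adjusted p of 0.000565, where 0.258% of all probe sets were called. The GH effect on Slc7a5 at 4 h exceeded that at 30 min by 1.63 ± 0.43 over all arrays (adjusted p = 0.681 by limma) and by 2.14 ± 0.25 without the array (adjusted p = 0.00214). The effect at 48 h was lower than that at 4 h by a log2 difference of -1.39 ± 0.43 over all arrays (adjusted p = 0.819 by limma) and -1.90 ± 0.25 without it (adjusted p = 0.00866). Over all arrays these 2 comparisons called 0 of 87 genes, where 0.0161% and 0.00805% of all probe sets were called, and 0.0725% and 0% with the block. Without the array each called 1 of 87, where 0.0725% and 0.0322% were. The array was not low for every GH-responsive gene: its Socs2 signal was the highest of the GH 4 h arrays, while Pik3r1, a subunit gene of phosphoinositide 3-kinase, had 524 on it and 1026 and 1561 on the others. For Pik3r1 the GH 48 h arrays had 555, 772 and 615. What set the GH 4 h array of experiment 3 apart was not tested. The average of the 3 GH effects on Slc7a5 was 0.48 ± 0.18 over all arrays (adjusted p = 0.611 by limma) and 0.65 ± 0.10 without the array (0.00771).

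**Figure D3:**
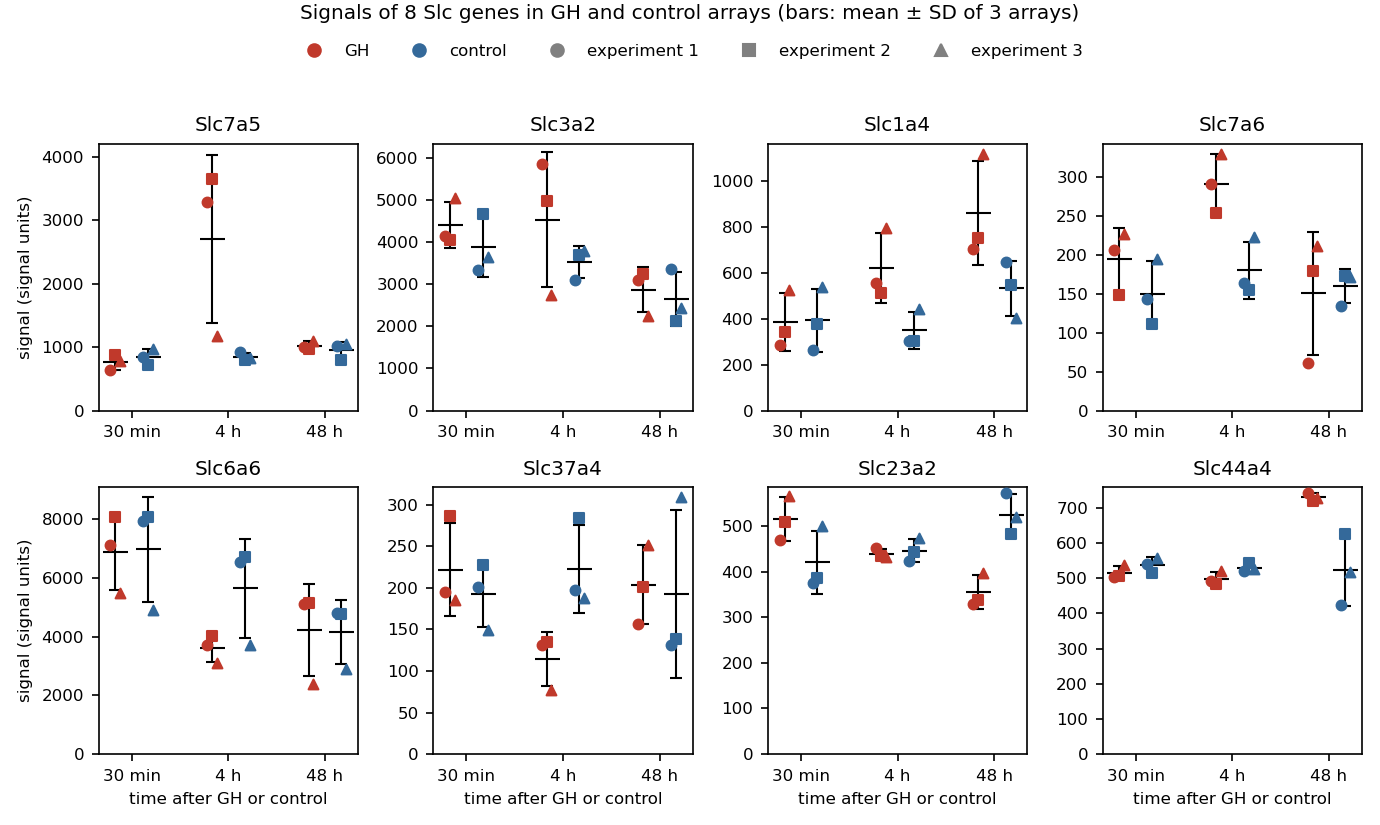
Signals of 8 carrier genes described with GH, by time, with GH in red left of control in blue, a marker shape for each experiment, and the mean ± SD of 3 arrays as bars. The GH 4 h signals of Slc7a5 are 3293, 3648 and 1182, all above the controls, and the lowest is from experiment 3.

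The partner chain and the other exchangers of neutral amino acids had smaller changes, none past the test over all arrays. Slc3a2 had 5853, 4985 and 2756 on the GH 4 h arrays and 3091, 3692 and 3782 on the control 4 h arrays, with a log2 change of 0.30 ± 0.26. Experiments 1 and 2 had higher GH signals and experiment 3 the reverse, and the groups overlapped. The GH signal of 2756 in experiment 3 is from the GH 4 h array whose labels conflict. Slc7a5 was higher with GH in experiment 3 as well, but its lowest GH 4 h signal was on that same array. Slc7a6, another light chain that pairs with Slc3a2, had 291, 255 and 330 with GH at 4 h and 164, 155 and 223 in controls, without overlap (0.63 ± 0.31, adjusted p = 0.739 by limma). Slc1a4, an exchanger of serine, alanine and other small neutral amino acids, had 556, 514 and 797 with GH at 4 h and 306 and 303 in the controls of experiments 1 and 2, and a mean of 350.1 ± 79.6 (SD, n = 3) over the 3 controls. At 48 h its signals were 706, 754 and 1121 with GH and 647, 546 and 406 in controls. The control signal of 406 is from the 48 h control array with conflicting labels, and GH and control lay farthest apart in that experiment. All GH arrays lay above all control arrays at both times, and the GH 4 h array with conflicting labels was the highest of its group for this gene. The log2 changes of Slc1a4 were 0.78 ± 0.29 at 4 h and 0.66 ± 0.29 at 48 h, with adjusted p-values of 0.560 and 0.714 by limma, beside -0.02 ± 0.29 at 30 min. Without that GH 4 h array the 4 h change was 0.60 ± 0.32 (adjusted p = 0.688 by limma), and 0.73 ± 0.28 with the block (0.270). Without all 3 arrays with conflicting labels it was 0.60 ± 0.30 (0.668), and 0.80 ± 0.16 with the block (0.0477), the single setting of these in which Slc1a4 passed. Slc7a6 had 0.55 ± 0.35 at 4 h without the array. Averaged over the 3 times the change of Slc1a4 was 0.47 ± 0.17, higher in 3 of 3 experiments, with an adjusted p of 0.558 by limma and 0.193 with the block.

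The promoters of Slc1a4 and Slc3a2 are shown because these genes encode a small neutral amino acid exchanger and the partner chain of Slc7a5, and because the stress-response factor ATF4 is known to drive several amino acid carriers through elements of the form TGATGNAA. The windows run from 250 bases before to 50 after the start of the gene in the RefSeq annotation of build GRCm38.p6, 5′ to 3′ on the minus strand of chr11:20332664-20332963 for Slc1a4 and of chr19:8713848-8714147 for Slc3a2. Capitals mark a match to TGATGNAA on either strand.
Slc1a4: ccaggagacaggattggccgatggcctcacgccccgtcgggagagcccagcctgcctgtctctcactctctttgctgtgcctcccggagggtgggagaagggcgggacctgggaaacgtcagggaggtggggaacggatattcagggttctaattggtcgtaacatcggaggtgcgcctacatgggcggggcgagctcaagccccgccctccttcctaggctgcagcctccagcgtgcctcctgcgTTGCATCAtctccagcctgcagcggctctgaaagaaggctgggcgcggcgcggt
Slc3a2: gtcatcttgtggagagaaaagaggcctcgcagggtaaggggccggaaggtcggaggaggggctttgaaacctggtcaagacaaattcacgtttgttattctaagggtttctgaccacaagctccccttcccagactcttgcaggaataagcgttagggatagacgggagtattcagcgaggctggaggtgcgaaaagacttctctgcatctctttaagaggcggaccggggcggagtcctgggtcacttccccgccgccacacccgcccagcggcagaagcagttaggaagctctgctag
The match in Slc1a4 reads TTGCATCA, lies on the strand opposite to the gene and begins 4 bases before the start. Slc7a5, Slc6a6 and Slc1a5 are among the genes without a promoter entry, so their promoters were not searched for either motif. Over the 72 of 87 genes with an entry, 3 of 105 windows (2.86%) held TGATGNAA, in Slc1a4, Slc23a3 and Slc50a1, beside 3.97% of the 32851 windows of all genes. The palindrome TTCNNNGAA, the form bound by STAT5, the factor that GH activates, was in 2 of 105 windows (1.90%), in Slc25a36 and Slc35b1, beside 8.30% of all windows. Both strands were searched, and no member held both motifs. These matches describe letters and not binding.

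Of the remaining amino acid carriers, Slc6a6 and Slc38a2 had lower mean signals with GH at 4 h. Slc6a6, the taurine carrier, had 3715, 4034 and 3100 with GH at 4 h and 6539, 6716 and 3709 in controls. Each experiment had the lower signal with GH, but the experiments differed so much from each other that the groups overlapped. Its log2 change was -0.60 ± 0.33 with an adjusted p of 0.807 by limma, and with the block -0.60 ± 0.15 and 0.123. Without the array at 4 h whose labels conflict it was -0.49 ± 0.37 (adjusted p = 0.849 by limma). With the block and without that array, it was -0.75 ± 0.15 with an adjusted p of 0.0286, in a fit that called 1.69% of all probe sets. Its second probe set, with a mean signal of 323, had a change of -0.15 ± 0.36. Slc38a2 had 1364, 1341 and 1025 with GH at 4 h, all below the control signals of 1544, 1436 and 1406 (-0.24 ± 0.23). Slc6a9, a glycine carrier, changed by -0.34 ± 0.18 at 30 min and by 0.29 ± 0.18 at 4 h, and the creatine carrier gene Slc6a8 by 0.54 ± 0.26 at 48 h. The dim Slc6a18, a carrier of neutral amino acids known from kidney, had 184, 49.6 and 27.4 with GH at 30 min and 208, 210 and 152 in controls, with the lowest p of the carriers in that comparison (-1.19 ± 0.50, adjusted p = 1.00 by limma). Of the 17 genes of this class, 10 were higher and 7 lower with GH at 4 h, none past the test, where 53.3% of all probe sets were higher.

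Slc37a4, which brings glucose 6-phosphate into the endoplasmic reticulum, had 132, 135 and 77.2 with GH at 4 h and 198, 284 and 187 in controls. The groups did not overlap, and the GH signals lay near the limit (-0.84 ± 0.30, adjusted p = 0.517 by limma). Without the array whose labels conflict the change was -0.63 ± 0.32. At 30 min and 48 h its changes were 0.18 ± 0.30 and 0.14 ± 0.30. Slc23a2, a sodium-coupled carrier of vitamin C, had 329, 338 and 398 with GH at 48 h and 572, 483 and 519 in controls. The log2 change was -0.53 ± 0.15, lower in 3 of 3 experiments, and its adjusted p of 0.214 by limma was the lowest of the carriers at 48 h, with 0.0628 under the block. At 30 min the same gene had 470, 508 and 566 with GH and 374, 386 and 501 in controls, higher in 3 of 3 experiments (0.28 ± 0.15). The difference between these 2 effects was -0.82 ± 0.21, 48 h minus 30 min, with an adjusted p of 0.409 by limma and 0.125 with the block, in a comparison that called 0 of 87 carriers and 0.0644% of all probe sets, or 0.177% with the block.

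Slc5a6, which carries biotin and pantothenate, differed between the experiments as well. At 4 h it had 1157, 1779 and 700 with GH and 509, 912 and 572 in controls, and at 48 h 1369, 1924 and 742 with GH and 729, 879 and 708 in controls. Each experiment had the higher signal with GH at both times, by little in experiment 3. The average of its GH effects was 0.53 ± 0.27 with an adjusted p of 0.846 by limma, and 0.53 ± 0.14 and 0.152 with the block. The folate carrier gene Slc19a1 had 1162, 1239 and 1146 with GH at 4 h and 690, 822 and 858 in controls, without overlap (0.57 ± 0.33), and at 48 h its change was -0.55 ± 0.33. Its second probe set, with a mean signal of 343, changed by 0.36 ± 0.20 at 4 h and, with the other sign, by 0.10 ± 0.20 at 48 h. Slc50a1, a glucose carrier of the family known as SWEET in plants, had 1203, 1157 and 1411 with GH at 48 h and 904, 923 and 1041 in controls (0.38 ± 0.18, adjusted p = 0.769 by limma). At 4 h it lay below its controls on all arrays (-0.22 ± 0.18).

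The choline carrier family held a pair of genes with opposite values at 48 h. Slc44a4 had 742, 719 and 729 with GH at 48 h and 423, 625 and 518 in controls. The GH arrays lay close together and above all controls (0.48 ± 0.14, adjusted p = 0.267 by limma, 0.115 with the block), while at 30 min and 4 h its changes were -0.06 ± 0.14 and -0.09 ± 0.14. Slc44a1, which brings choline into cells, had 337, 277 and 428 with GH at 48 h and 369, 802 and 501 in controls (-0.60 ± 0.25, adjusted p = 0.666 by limma). The change of Slc44a1 was mainly that of experiment 2, where it was -1.45 beside -0.12 and -0.22.

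Most mitochondrial carriers had signals close to control. At 4 h 12 of 17 were higher and 5 lower with GH, with a median change of 0.11, where 53.3% of all probe sets were higher. At 48 h 6 were higher and 11 lower, with a median of -0.04, where 53.5% of all probe sets were higher. The 4 h count includes Slc25a47, which passed the limit only with the GH 4 h arrays (mean 103.8 without them). Slc25a3, described below, is in both counts through such groups, so these counts support nothing about GH. Slc25a4 changed by 0.04 ± 0.16, 0.11 ± 0.16 and 0.10 ± 0.16 at 30 min, 4 h and 48 h, Slc25a39 by -0.04 ± 0.14, 0.07 ± 0.14 and -0.04 ± 0.14, and the citrate carrier gene Slc25a1 by -0.12 ± 0.27, 0.11 ± 0.27 and -0.05 ± 0.27. Slc25a20, which brings acylcarnitines in for oxidation, changed by -0.18 ± 0.16, 0.04 ± 0.16 and -0.01 ± 0.16. A larger difference was seen in the dim Slc25a3 at 4 h, with 178, 64.8 and 233 with GH and 43.2, 117 and 61.2 in controls (0.83 ± 0.43, or 0.52 ± 0.46 without the array whose labels conflict). Another was in the brighter Slc25a25, an ATP-magnesium and phosphate exchanger regulated by calcium. At 48 h it had 137, 433 and 130 with GH and 336, 358 and 359 in controls (-0.73 ± 0.37). In both, 1 of 3 experiments went the other way. Slc25a3 is among the genes only through groups in which it is high, since its mean was 102.8 without the 3 GH 4 h arrays and 98.8 without the 3 control 48 h arrays, both below the limit, so its values are a description and support nothing about GH. Slc25a17, a carrier of the peroxisome membrane, had 1527, 1502 and 1758 with GH at 48 h, all above the control signals of 1264, 1224 and 1408 (0.29 ± 0.15, adjusted p = 0.794 by limma).

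None of the fatty acid, ion, metal and nucleotide sugar carriers passed the test. Slc27a4, a fatty acid carrier, changed by 0.31 ± 0.26, 0.32 ± 0.26 and 0.30 ± 0.26 at the 3 times, and Slc27a1 by -0.01 ± 0.38, -0.26 ± 0.38 and -0.19 ± 0.38. Slc12a4, which moves potassium and chloride out of the cell, had 713, 721 and 809 with GH at 4 h and 602, 640 and 612 in controls. At 48 h it had 715, 646 and 779 with GH and 586, 550 and 579 in controls, again without overlap. Its log2 changes of 0.26 ± 0.13 and 0.30 ± 0.13 had adjusted p-values of 0.777 and 0.714 by limma, and at 4 h it was 0.21 ± 0.15 without the array whose labels conflict. Slc12a7, of the same kind, changed by 0.26 ± 0.21 and 0.29 ± 0.21, and Slc12a2, which works inward, by -0.52 ± 0.36 and 0.15 ± 0.36. Slc9a3r2, a scaffold of sodium and proton exchangers, changed by 0.46 ± 0.23 at 30 min. The 13 metal carriers lay between -0.28 and 0.21 at 4 h and between -0.37 and 0.16 at 48 h, and the zinc carrier gene Slc30a9 had an average change of -0.21 ± 0.10. Among the nucleotide sugar family, Slc35b1, an exchanger of the endoplasmic reticulum, changed by 0.28 ± 0.16 at 4 h, or 0.25 ± 0.18 without that array, and by 0.24 ± 0.16 at 48 h.

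The genes that carriers work with did not pass either. Of 42 such genes, 32 were measured, among them subunits of the sodium pump, fatty acid binding and activating proteins, uncoupling proteins, carbonic anhydrases and enzymes of amino acid supply. None rose or fell at any of the 3 times by limma, with or without the block, and their median changes were -0.01, 0.05 and 0.07. Asns, the asparagine synthetase, changed by 0.55 ± 0.16 at 4 h (adjusted p = 0.332 by limma), Atf4 by 0.23 ± 0.19, and Bsg, the chaperone of lactate carriers, by 0.08 ± 0.24. These 3 were named after their values were seen, and none of them is a carrier. At 4 h, 8 of 8 fat cell markers and 5 of 6 preadipocyte or fibroblast markers had lower values with GH, none past the test with or without the block, as did 2 of 5 macrophage, 2 of 4 endothelial and 2 of 4 muscle markers. The fat cell markers summed to 69594 to 78142 on GH 4 h arrays and to 65104 to 89457 on control 4 h arrays, and the preadipocyte or fibroblast markers to 18986 to 32345 with GH and 22367 to 37030.1 in controls. At 48 h, 6 of 6 preadipocyte or fibroblast markers had lower values with GH, 1 past the test and 2 with the block. Their summed signal ran from 12168 to 43752 on GH 48 h arrays and from 27657 to 43571 on control 48 h arrays. Lower values with GH at 48 h were also found for 4 of 8 fat cell markers, 1 past the test with the block, and for 4 of 4 muscle, 3 of 5 macrophage and 2 of 4 endothelial markers, none past it. The fat cell markers summed to 61504 to 75672 with GH and 74311 to 78864 in controls, and the muscle markers to 383 to 553 with GH and 488 to 880 in controls. No marker was at 0 on any array, and the part of these cells in the carriers' values at 4 h and 48 h was not tested.

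With the block, more carriers passed between times than between GH and control, but these comparisons differ in precision. The GH and control arrays of a time were averaged and later times set against earlier ones, a comparison added after the data were seen. Without the block, the median standard error of the carriers was 0.18 between times and 0.26 for GH against control at each time. The counts are therefore not of like power. From 30 min to 48 h, 1 of 87 carriers passed by limma, where 1.07% of all probe sets did, and 8 of 87 with the block, where 3.81% did. Of the 8, 5 were higher and 3 lower at 48 h, where 1.71% and 2.09% of all probe sets were. Culture conditions that changed with time cannot be told apart from time itself.

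Slc25a25 was the gene called without the block. Its signals were 669 to 931 with GH and 555 to 740 in controls at 30 min, 255 to 534 with GH and 285 to 527 in controls at 4 h, and 130 to 433 with GH and 336 to 359 in controls at 48 h. Every array at 30 min lay above every other array. The log2 difference of 48 h minus 30 min was -1.38 ± 0.26 with an adjusted p of 0.0144 by limma, and 0.00721 with the block. It was lower in 3 of 3 experiments. Without the block the call was lost when any of the 3 experiments was left out, with adjusted p-values of 0.0574 to 0.354 by limma, and without the 3 arrays with conflicting labels (0.0613). With the block it was lost without experiment 1 (0.158) or 2 (0.0547), and kept without experiment 3 (0.0415) and without the 3 arrays (0.0450). In these fits the difference stayed between -1.57 and -1.28. At 4 h the difference from 30 min was -0.90 ± 0.26 (adjusted p = 0.256 by limma).

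The 7 genes called only with the block include a pair of amino acid carriers that were lower at 48 h and one that was higher. Slc6a6 had a median signal of 7540 at 30 min (lowest 4895, highest 8087), of 3875 at 4 h (3100 to 6716) and of 4796 at 48 h (2403 to 5150), over 6 arrays each. Its difference of 48 h minus 30 min was -0.76 ± 0.23, with an adjusted p of 0.159 by limma and 0.00123 with the block, and that of 4 h minus 30 min was -0.62 ± 0.23 (0.455 and 0.0114). Its second, dimmer probe set gave 0.13 for the first of these and 0.08 for the other. Slc1a5, a glutamine carrier, had medians of 1265, 1211 and 686 at 30 min, 4 h and 48 h. It fell by 0.78 from 30 min to 48 h (adjusted p = 0.00248 by limma with the block) and by 0.67 from 4 h to 48 h (0.0218). Without the block neither difference of Slc1a5 passed. In Slc1a4 the medians were 359, 478 and 676, and the difference of 48 h minus 30 min was 0.78 ± 0.20 (0.0908 without the block and 0.0188 with it by limma). This difference averages GH and control arrays, and the rise was larger on GH arrays. The GH effect on Slc1a4 at 48 h exceeded that at 30 min by 0.68 ± 0.41 (adjusted p = 0.999 by limma). Slc1a5 and Slc1a4 both overlapped between 30 min and 48 h, and at 30 min experiment 3 had the lowest Slc1a5 and the highest Slc1a4 signals.

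A trio of mitochondrial carriers and 1 nucleotide sugar gene were higher at 48 h. The oxoglutarate and malate exchanger gene Slc25a11 had 1052 to 1331 at 30 min, 1065 to 1289 at 4 h and 1458 to 1956 at 48 h, so that every 48 h array lay above every earlier one. Its difference of 48 h minus 30 min was 0.46 ± 0.11 (adjusted p = 0.0509 by limma and 0.0197 with the block), and that of 48 h minus 4 h was 0.50 ± 0.11 (0.130 and 0.0365). Slc25a5, an exchanger of ADP and ATP whose probe set, of the _f_at kind, may also bind close relatives, had 1763 to 2303 at 30 min and 2339 to 3305 at 48 h (0.50 ± 0.12, 0.0628 and 0.0263 by limma). Its _r_at probe set changed by 0.41 and a dim one, with a mean signal of 43.1, by -0.25. Slc25a4 had medians of 5701 at 30 min and 7459 at 48 h (0.34 ± 0.11, 0.200 and 0.0433 by limma). Slc35c2 had 443 to 521 at 30 min and 527 to 766 at 48 h, without overlap (0.41 ± 0.11, 0.0962 and 0.0329 by limma). Between 4 h and 30 min 0 of 87 carriers were called without the block, where 0.451% of all probe sets were, and between 48 h and 4 h 0 of 87, where 0.0564% were. With the block these were 1 of 87 against 0.934%, and 2 of 87 against 0.853%. In controls alone, later minus earlier called 0 of 87 at 4 h minus 30 min, where 0.0886% of all probe sets were called, and 0 of 87 at 48 h minus 4 h, where 0% were. With the block these were 0 of 87 against 0.0966% and 0 of 87 against 0.00805%. In controls alone, 48 h minus 30 min was not fitted.

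**Figure D4:**
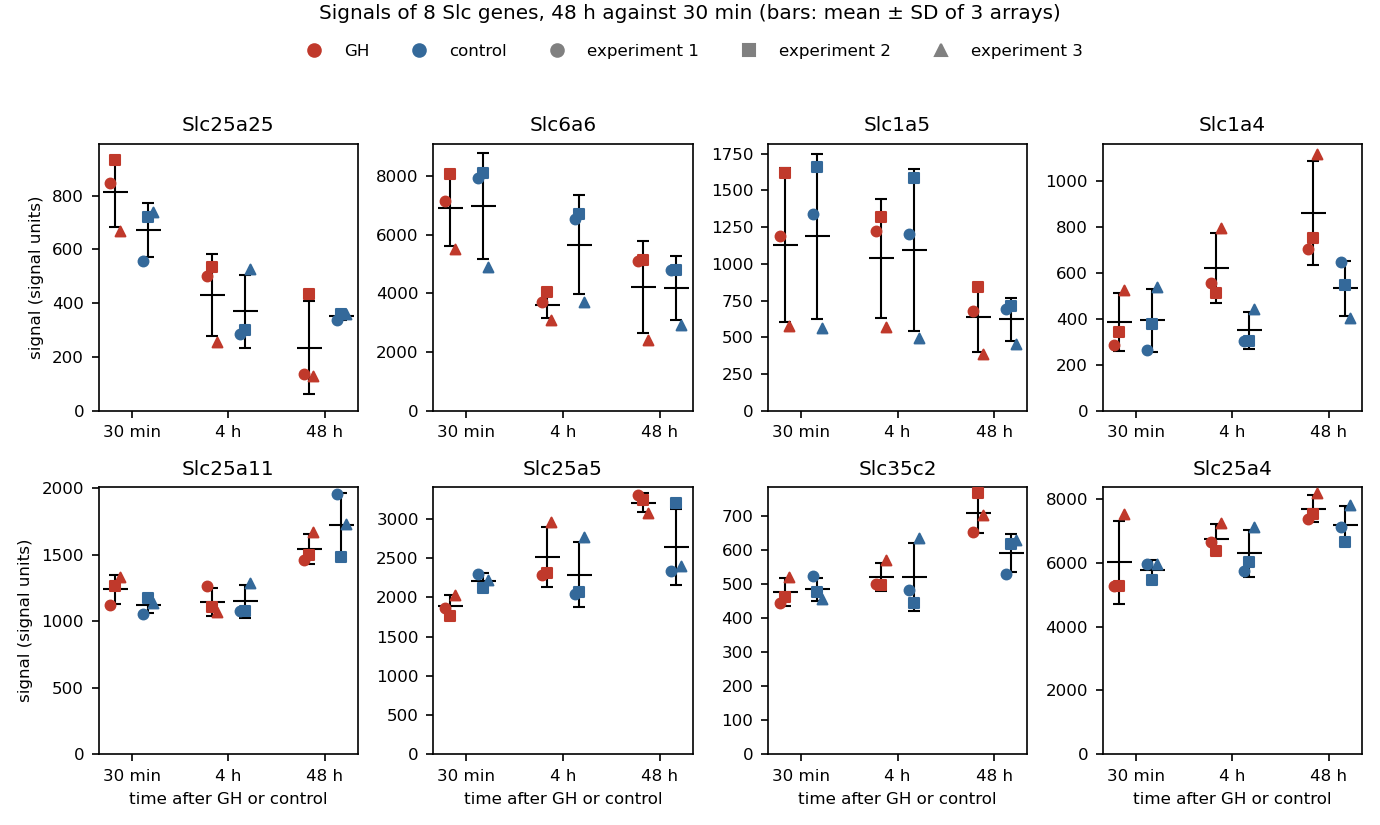
Signals of the 8 genes called between 48 h and 30 min with the experiments as a block, by time, with GH in red left of control in blue, marker shapes for the 3 experiments and the mean ± SD of 3 arrays as bars. Slc25a25 is highest at 30 min, with signals of 555 to 931, and Slc25a11 is highest at 48 h, with 1458 to 1956.

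More carriers were called between the experiments, of 6 arrays each, than between GH and control groups of 3 arrays at any time. A limma F test between the 3 experiments, added after the data were seen, called 20 of 87 carriers (23%), where 14.8% of all probe sets were called. With probe sets above the limit tested alone, as all carriers are, it called 25 of 87, where 30.9% of those probe sets were called. Of the 20, 12 were lowest in experiment 3 and 8 were highest in it. The glutamine carrier gene Slc1a5 had medians of 1197, 1451 and 529 over the 6 arrays of experiments 1, 2 and 3, and its highest signal in experiment 3, 579, lay below its lowest in each of the others, 678 and 715. The orphan family member Slc23a3, on an _r_at probe set, had medians of 542, 374 and 206. Slc41a1, a magnesium carrier, had 255, 372 and 158, the fatty acid carrier gene Slc27a1 had 978, 1218 and 608, and the iron carrier gene Slc11a2 had 1130, 876 and 622. The zinc carriers went both ways: Slc39a1 had medians of 2708, 2490 and 1699, while Slc39a7, which releases zinc from the endoplasmic reticulum, had 1844, 2167 and 2897. Slc22a12, a urate carrier known from kidney, had 196, 180 and 367, and Slc35a1, which carries CMP-sialic acid into the Golgi, had 358, 299 and 516. With the arrays of 1 time alone, 6 for 3 experiments, the limma F test called 0 of 87 at each time, where 0% of all probe sets were called. At an unadjusted p below 0.05 there were 20, 16 and 12 carriers at 30 min, 4 h and 48 h, where 16.7%, 12.2% and 13.1% of all probe sets were.

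**Figure D5:**
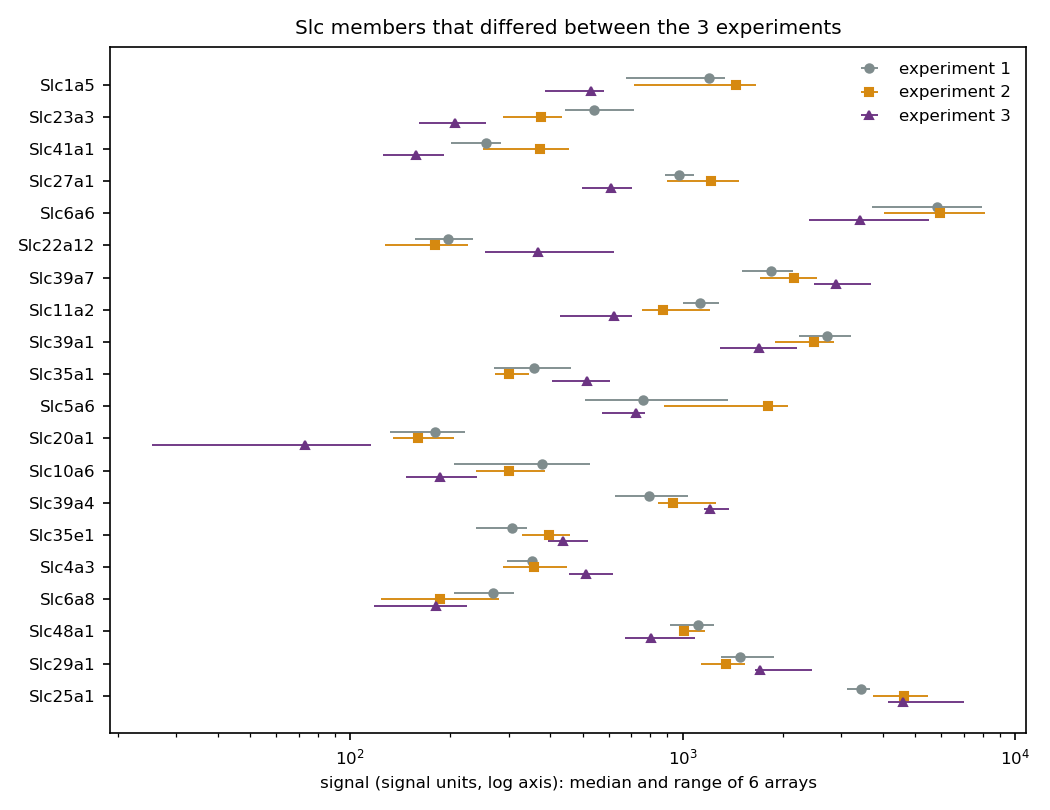
Signals of the 20 carriers that differed between experiments 1, 2 and 3, 1 row per gene, on a log axis in signal units. Points are the medians of 6 arrays, GH and control together, and lines run from the lowest to the highest array, with a colour and marker for each experiment. In Slc1a5 the 6 signals of experiment 3 lie between 384 and 579, below all of the others.

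The summed signal of the 6 preadipocyte or fibroblast markers differed between experiments in the same arrays. It was 15227 to 33620 in experiment 1, 12168 to 27657 in experiment 2 and 32345 to 43752 in experiment 3. The 8 fat cell markers summed to 74311 to 92408, 61504 to 94490 and 65083 to 78864. The macrophage markers summed to 544 to 769, 359 to 656 and 379 to 504, so that experiments 1 and 3 did not overlap, and the muscle markers to 472 to 680, 383 to 632 and 553 to 1127. The endothelial markers, none above the limit on average, summed to 82.0 to 253, 64.7 to 157 and 80.2 to 313. The part of the culture's makeup in the differences of the carriers between experiments was not tested.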

How the data were processed

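The authors deposited 1 signal intensity per probe set and array for 12488 probe sets on 18 Affymetrix MG_U74Av2 arrays; the summary method, scaling and software are not given in the sources used here. Their intensities had a mean of 500.3 on every array with 2% trimmed at each end, so they were scaled between arrays before deposit. Leaving out 66 control probe sets left 12422. Gene symbols came from the platform annotation (10833 probe sets with 1 symbol, 396 with several, 1193 with none, unnamed here). All 188 Slc probe sets with 1 symbol matched the reference gene table by gene identifier.

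The genes and lists were chosen with earlier results of these data known. Genes named in the text were drawn from 4 sets, and not every gene of the sets is named. The sets were those past the threshold in a GH or time comparison and the 8 with the lowest p in each GH comparison. The others were the 3 brightest of each class and those nearest the limit. Slc23a3, Slc25a20, Slc41a1, Slc11a2, Slc22a12 and Slc35a1 were named after their values were seen. Slc25a36 was named for a motif match, and Slc9a3r1 and Slc4a1ap for what they encode. Signals were analysed as log2(signal + 25), 25 being near the 20th percentile, and a change is smaller on this scale than the ratio of dim signals. limma 3.58.1 in R 4.3.3 fitted 1 model of the 6 groups on all arrays, two-sided, with Benjamini-Hochberg adjustment over the 12422 probe sets. The experiment number, given in the titles, was a replicate block in a second fit. In the 9 pairs of GH and control arrays, deviations from group means correlated at 0.151 to 0.457, each above a set limit of 0.1. The numbers were taken to pair the arrays. GH and control arrays of unlike experiment number were not compared, so the check had no baseline and does not test the pairing. The scripts were tested on simulated data with known changes. Alternatives were the block, pseudocounts of 10 and 50, quantile normalization, a filter on dim probe sets, the compared arrays alone, other probe sets, other membership limits, and leaving out arrays or experiments. With 3 arrays per group, their number limits the precision.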

Additional observations from a re-analysis of the deposited data

How the results depend on the processing

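Of 1065 values of named genes under the alternatives, 996 kept their direction and their side of the threshold, 59 passed it where they had not, 6 no longer passed and 4 changed sign. All 4 came from a second probe set: Slc6a8 with GH at 48 h (-0.22), Slc6a6 between 4 h and 30 min (0.084) and between 48 h and 30 min (0.13), and Slc25a5 between 48 h and 30 min (-0.25). Outside this count, the second probe set of Slc19a1 also had the other sign with GH at 48 h (0.10). The 182 mean levels recomputed stayed within 1 SD. The replicate block called 0 of 87 carriers in each planned comparison, as without it, and in the added time comparisons 1 at 4 h minus 30 min, 2 at 48 h minus 4 h and 8 at 48 h minus 30 min.

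Counts of carriers called are given with the share of all probe sets called in the same fits. With GH at 4 h the count was 0 to 2 when an array or an experiment was left out (0% to 1.69%), 1 without the 3 arrays with conflicting labels (0.258%) and 3 with the block as well (1.55%). The average of the 3 GH effects gave 0 to 1 (0.0322% to 0.886%), and 1 without the 3 arrays (0.25%), also with the block (0.628%). The GH effect at 4 h minus that at 30 min gave 0 to 1 (0% to 0.225%), and 1 without the 3 arrays (0.0242%), also with the block (0.105%). The GH effect at 48 h minus that at 4 h gave 0 to 1 (0% to 0.467%), and 1 without the 3 arrays (0.0322%), also with the block (0.459%). The call without the block was that of Slc7a5, and the array that decides it is the GH 4 h array of experiment 3; with the block Slc6a6 was added without that array, and Slc1a4 too without the 3 arrays. Between 4 h and 30 min the count was 0 to 2 on leaving out arrays (0.129% to 1.88%), 1 without the 3 arrays (0.403%) and 2 with the block as well (1.14%). Between 48 h and 4 h it was 0 to 5 (0% to 1.70%), 1 (0.121%) and 4 (1.14%). Between 48 h and 30 min it was 0 to 11 (0.193% to 4.53%), 0 (0.572%) and 7 (2.75%). The 11 came with the block without the GH 4 h array of experiment 3 (4.53%). It was 2 without the control 48 h array of experiment 2 (0.869%) or the control 30 min array of experiment 3 (1.05%), 3 with a pseudocount of 50 (1.21%), 3 after quantile normalization (1.09%) and 5 among probe sets above the limit (2.80%). The experiments differed in 0 carriers with the arrays of 30 min, 4 h or 48 h alone (0% each). Under the other alternatives they differed in 15 (10.8%, without the 3 arrays) to 25 (30.9%, probe sets above the limit), against 20 (14.8%). No shift of a count was tested as particular to the carriers. Halving the membership limit gave 113 genes and doubling it 68. The cause of these shifts was not tested. Signals near the limit are close to the brightest non-mouse probe sets, so small changes of dim carriers such as Slc25a3, Slc25a47 and Slc6a18 are not resolved here.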
